A study of Mus with 4 samples.

Results

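Circular RNAs (circRNAs) spliced from the genes of 48 RNA-binding and splicing proteins were examined in mouse ocular tissue. The genes were taken from a list that holds the Cpeb, Muscleblind, SR, hnRNP, Rbfox, Celf, Ptbp and CCR4-NOT genes. The list was chosen with earlier results of these data known. A circRNA belonged to a gene when its deposited host identifier mapped to it. Of the 48 genes, 45 hosted at least 1 circRNA, and Hnrnpk, Srsf3 and Srsf4 hosted none. Together these hosts gave 386 of the 44073 circRNAs listed in the series.

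A circRNA forms when a splice donor joins an acceptor upstream of it, so that a read across the back-spliced junction marks a closed molecule. Many of the proteins encoded by these hosts act on splicing itself. Quaking, encoded by Qk, promotes circle formation in human cells, and Muscleblind does so in the fly. The RNA editor ADAR and the helicase DHX9 act against the intronic repeat pairs that favour circles. CPEB proteins bind elements in the 3′ end of mRNAs and set the length of the poly(A) tail and translation. SR proteins bind exonic enhancers and help the spliceosome to select splice sites.

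All 4 groups were C57BL/6J mice that had been in 75% oxygen from postnatal day 7 (P7) to P12. This schedule is used as a model of oxygen-induced retinopathy. The genotypes were wild type and VLDLR deletion, each at P12 and at P13, where VLDLR is the very-low-density lipoprotein receptor. Tissue at P12 was taken on return to room air, and tissue at P13 after 1 more day. A day difference is thus one of age and of room air, and these cannot be told apart. There was 1 library per group, and the number of animals in it is not given in the labels. Unless stated otherwise, sets of 4 values give the wild-type libraries first (P12, then P13) and the deletion libraries after them (P12, then P13).

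The libraries held 662811, 759063, 299723 and 341873 junction reads. The wild-type libraries came from 1 sequencing run and the deletion libraries from another, per the read identifiers, so that genotype and run cannot be told apart in any genotype comparison below. Vldlr had 0 junction reads in every library, so the deletion could not be checked. Of 58 marker genes on 12 cell type lists, 40 had junction reads. Photoreceptor hosts summed to 993, 1147, 1469 and 1493 scaled reads per 100000, with 9 of 10 genes detected. Lens fibre hosts summed to 82.0, 103, 267 and 198, with 4 of 5 detected and Lim2 at 0, and bipolar cell hosts to 57.8, 58.0, 99.2 and 71.6, with 4 of 5 detected. Retinal pigment epithelium and melanocyte hosts summed to 10.5, 11.5, 18.8 and 21.1, with 5 of 5 detected. Striated muscle hosts summed to 217, 224, 241 and 287, with 4 of 5 detected and Myh4 at 0. All 3 cornea markers were at 0. Apart from cornea, the sums above were higher in both deletion libraries, as were those of erythroid hosts (7.83, 9.79, 11.8 and 16.3). Amacrine, horizontal and ganglion cell hosts overlapped between genotypes (34.2, 30.6, 33.2 and 38.7). So did Mueller glia hosts (2.40, 0.839, 1.84 and 2.93) and endothelium hosts (6.39, 10.8, 8.48 and 9.43). Pericyte and fibroblast hosts gave 3, 0, 7 and 0 junction reads, and microglia and leukocyte hosts 0, 0, 0 and 3. The part of these sums in the differences below was not tested. In whole tissue, fewer cells of a type and less RNA per cell cannot be told apart.

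The 45 hosts gave 4388, 4956, 2054 and 2472 junction reads. These were 0.662%, 0.653%, 0.685% and 0.723% of the reads of a library. The number of their circRNAs listed was 245, 277, 156 and 181. At an equal depth of 299723 reads the expected numbers were 173, 190, 156 and 173. The share of the reads was thus lowest in wild type P13 and highest in deletion P13. The number of circles at equal depth was highest in wild type P13 and lowest in deletion P12. Equal-depth numbers over all circRNAs were not taken, so that this order is not shown to be particular to these hosts. Of all circRNAs listed in a library, these hosts gave 0.858%, 0.888%, 0.866% and 0.899%.

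Reads were concentrated in a few hosts. Cpeb3, Cnot2, Rbm33, Celf2 and Mbnl2 gave 43.7% of the 13870 reads. The median host gave 134 reads over the 4 libraries and 7 circRNAs, against 42 reads and 3 circRNAs for all 7252 hosts. Of the 386 circRNAs, 337 (87.3%) were of the exon class and 49 (12.7%) of the intron class, and among all circRNAs with a host the shares were 91.5% and 8.48%. Median genomic span was 9632.5 bases against 10678.5. In all, 346 circRNAs (89.6%) shared a start or an end with another circle of the same host. Listing in every library was found for 105 circRNAs (27.2%, against 25.6% of all with a host), and 169 (43.8%, against 41.4%) were listed in 1 library alone.

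For the test, hosts and circRNAs needed 10 or more reads in 2 or more libraries. This left 34 of the 48 hosts and 82 of the 386 circRNAs. The 11 listed hosts that did not pass had at most 17 reads each over the 4 libraries: Cpeb2, Cpeb4, Elavl1, Hnrnpc, Hnrnpu, Tardbp, Adar, Adarb1, Dhx36, Ddx5 and Fxr1. The filter kept the hosts rich in circles, and counts over the 34 say nothing of the other 14.

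The first comparison asked how circle output of each host differed between VLDLR deletion and wild type over both days. Srsf1, Cnot2, Cpeb3, Acin1, Celf2 and Msi2 rose in the deletion and Mbnl2 and Rbm5 fell, relative to the median host. That is 6 of 34 hosts higher (17.6%, background 7.47% of 3924 hosts) and 2 lower (5.88%, background 6.47%) by edgeR's quasi-likelihood test, with p adjusted over all hosts by the Benjamini-Hochberg method. The difference of these shares from the background was not tested. The members were chosen with earlier results of these data known, and the median listed member host had 134 reads against 42 for all hosts. The median log2 difference was -0.09 over the 34 hosts and -0.04 over all hosts tested. DESeq2 called 3 higher and 1 lower, against 114 and 73 of all 3924 hosts. A fit with a library left out cannot hold the day term as well, because 0 residual degrees of freedom would remain, so that those fits change both choices. With all 4 libraries and no day term, Srsf1, Cnot2, Cpeb3 and Mbnl2 passed, and Acin1, Celf2, Msi2 and Rbm5 did not (adjusted p of 0.0694, 0.0732, 0.0654 and 0.0821, edgeR's quasi-likelihood test). That fit called 4 hosts, as did the one without wild type P12, and the one without wild type P13 called 5. The scaling sets what a rise means here. In the deposited SRPBM values the median host was lower in the deletion by a log2 difference of -1.56, and on that scale 0 of the 34 were called higher and 26 lower. All 6 hosts that rose relative to the median lay below wild type there. Where both deletion libraries of a called host are given below as above or below both wild-type libraries, the test used the same values. Such a lack of overlap is thus no separate support for the call.

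**Figure D1:**
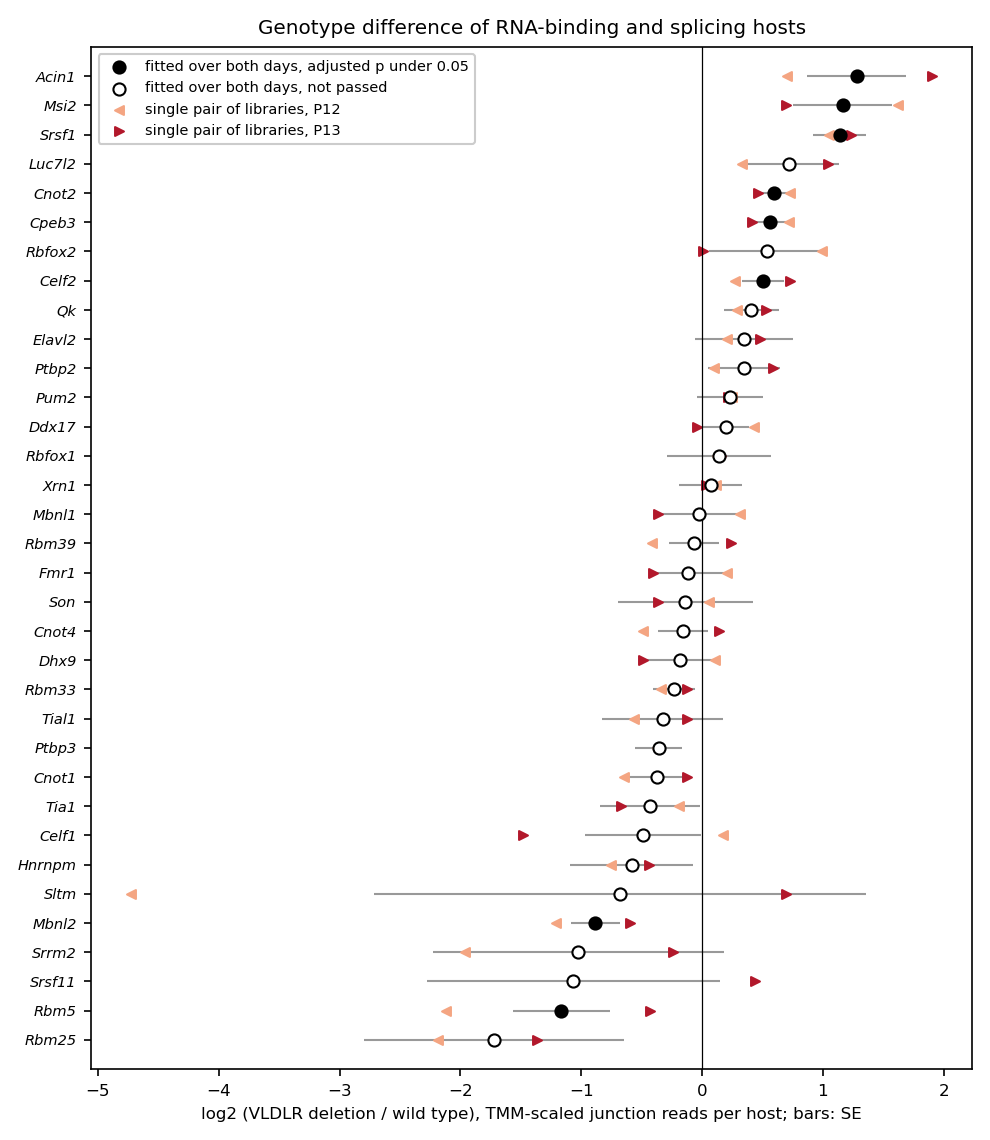
Each row is 1 of the 34 tested hosts, and the horizontal axis is the log2 difference, VLDLR deletion over wild type, of TMM-scaled junction reads, which sets the median host near 0. Circles are the difference fitted over both days with its SE (filled, adjusted p under 0.05), and triangles are the ratio of the single P12 or P13 libraries. A host unlisted in 1 library has no triangle for that day. Acin1, Msi2 and Srsf1 have the highest fitted values and Rbm25 the lowest, with Rbm25 not passing the test. All 6 hosts that rose lie below wild type on the SRPBM scale.

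Among the genes of cytoplasmic polyadenylation and 3′-end binding, 2 of 4 were tested, and 1 of these rose. Counts by role, here and below, rest on few hosts and were not tested against the background (7.47% higher, 6.47% lower). Cpeb3, whose protein represses and activates translation at synapses, gave 463, 650, 330 and 373 junction reads. Scaled to 100000 reads these were 74.0, 90.9, 122 and 121. Both deletion libraries lay above both wild-type libraries, and wild type P13 lay above wild type P12. The log2 difference was 0.56 (SE 0.13; adjusted p = 0.000411, edgeR's quasi-likelihood test), and on the SRPBM scale it was -0.96. Without wild type P12 it was 0.38 and no longer passed (adjusted p = 0.214, edgeR's quasi-likelihood test).

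The other Cpeb genes gave almost no circles. Cpeb2 had 2, 0, 0 and 0 reads in 1 circle (chromosome 5, 43237307 to 43261784). Cpeb4 had 0, 5, 4 and 0 reads in 1 circle (chromosome 11, 31908825 to 31930219). Neither could be compared at this depth. Pum2, a Pumilio repressor of mRNAs, gave 103, 96, 53 and 48 reads, with a log2 difference of 0.23 (SE 0.27; adjusted p = 0.672, edgeR's quasi-likelihood test).

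Both Muscleblind genes were tested, and they differed in their values. Their proteins regulate splicing in development, and their capture by expanded CUG repeats underlies myotonic dystrophy. Mbnl2 gave 304, 320, 57 and 91 reads, or 48.6, 44.8, 21.0 and 29.6 scaled reads. Both deletion libraries lay below both wild-type libraries. Mbnl2 fell by 0.88 on the log2 scale (SE 0.20; adjusted p = 0.000256, edgeR's quasi-likelihood test), and on the SRPBM scale by 2.41. Mbnl1 gave 65, 90, 35 and 30 reads, or 10.4, 12.6, 12.9 and 9.76 scaled reads, and the genotypes overlapped. Its log2 difference was -0.03 (SE 0.33; adjusted p = 0.973, edgeR's quasi-likelihood test). The difference between the paralogs was not tested.

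Of 12 genes of tissue-specific splicing and mRNA binding, 11 were tested; 2 rose and 0 fell. Celf2, a regulator of neuronal and muscle splicing, gave 247, 251, 129 and 179 reads, or 39.5, 35.1, 47.6 and 58.2 scaled reads. Msi2, a Musashi protein that binds UAG-containing motifs, gave 30, 36, 40 and 25 reads, or 4.79, 5.04, 14.7 and 8.13 scaled reads. For both hosts the deletion libraries were the higher pair, Celf2 highest at P13 and Msi2 highest at P12. Log2 differences were 0.51 for Celf2 (SE 0.18; adjusted p = 0.0330) and 1.17 for Msi2 (SE 0.41; adjusted p = 0.0354) by edgeR's quasi-likelihood test, and on the SRPBM scale they were -1.02 and -0.35. Neither passed without the day term, so that fits without that term and a library do not show the part of the library. With intron-class circles left out, Celf2 and Msi2 missed the threshold (adjusted p of 0.114 and 0.0878, edgeR's quasi-likelihood test), as they did with no filter on low counts (0.124 and 0.0861). Celf2 missed it also when circles not listed in every library were left out (adjusted p = 0.332, edgeR's quasi-likelihood test).

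The other 9 tested hosts of this role did not pass. Qk gave 151, 147, 80 and 91 reads, with a log2 difference of 0.41 (SE 0.23; adjusted p = 0.262, edgeR's quasi-likelihood test). Ptbp3, a polypyrimidine tract-binding protein, gave 245, 304, 82 and 103 reads and -0.36 (SE 0.19; adjusted p = 0.251, edgeR's quasi-likelihood test). Rbfox1, Rbfox2, Celf1, Ptbp2, Tia1, Tial1 and Elavl2 lay between -0.49 for Celf1 and 0.54 for Rbfox2.

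**Figure D2:**
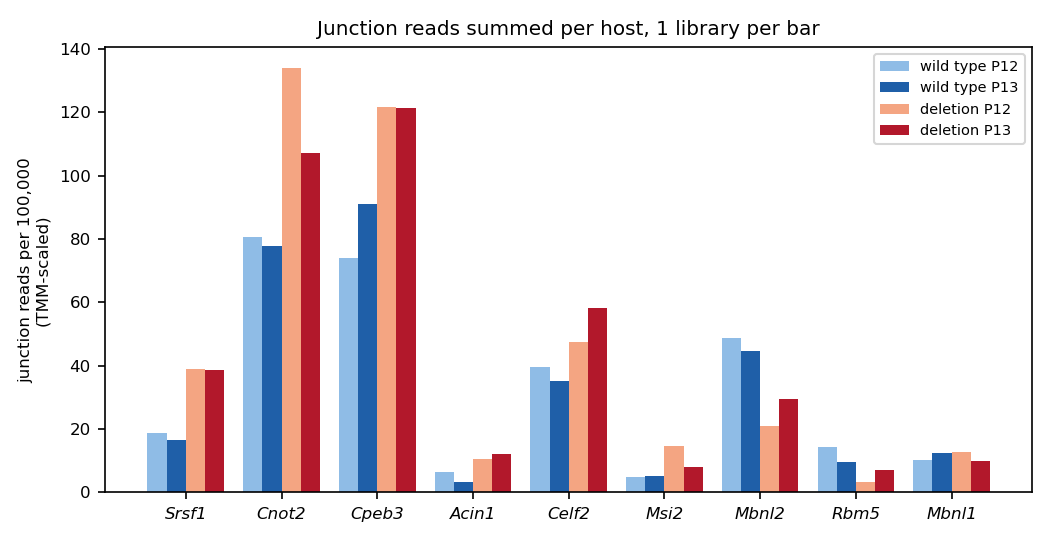
Bars give junction reads summed per host, TMM-scaled to 100000 reads, with 1 library per bar and no error bar because each group has 1 library. The 6 hosts that rose have both deletion bars above both wild-type bars, Mbnl2 and Rbm5 have both below, and the Mbnl1 bars overlap between genotypes. The hosts that rose or fell were picked by a test on these same values, so that their lack of overlap is no separate support. On the SRPBM scale the 6 hosts that rose lie below wild type.

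Among 12 SR proteins and splicing cofactors, 10 were tested; 2 rose and 1 fell. Srsf1 is an SR protein that also regulates the splicing of its own transcript. It gave 118, 118, 106 and 119 reads, or 18.9, 16.5, 39.1 and 38.7 scaled reads. The raw counts were close in all libraries, although the deletion libraries held fewer reads in all. Its log2 difference was 1.14 (SE 0.22; adjusted p = 1.03e-05, edgeR's quasi-likelihood test) and -0.38 on the SRPBM scale (adjusted p = 0.114). Srsf1, Cnot2 and Mbnl2 were the hosts that passed without the day term whichever library was left out.

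Acin1 encodes acinus, which binds RNA in a complex on spliced mRNA. It gave 41, 23, 29 and 37 reads, or 6.55, 3.22, 10.7 and 12.0 scaled reads, with the lowest value in wild type P13. The log2 difference was 1.28 (SE 0.41; adjusted p = 0.0182, edgeR's quasi-likelihood test) and -0.23 on the SRPBM scale. Acin1 did not pass without the day term, where the difference was 1.23, and with wild type P13 left out as well the difference was 0.75 (adjusted p = 0.388, edgeR's quasi-likelihood test).

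Rbm5, a splicing regulator of apoptosis genes, gave 90, 69, 9 and 22 reads, or 14.4, 9.65, 3.32 and 7.16 scaled reads. The deletion libraries lay below the wild-type libraries, with deletion P12 the lowest. Rbm5 fell by 1.16 (log2; SE 0.40; adjusted p = 0.0311, edgeR's quasi-likelihood test). It did not pass without the day term, where the difference was -1.17, and with deletion P12 left out as well the difference was -0.74 (adjusted p = 0.255, edgeR's quasi-likelihood test).

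The 7 hosts of this role that did not pass were Srsf11, Son, Srrm2, Luc7l2, Rbm25, Rbm33 and Rbm39. Rbm33, the third of all 48 by reads, gave 332, 338, 114 and 133 reads, or 53.0, 47.3, 42.0 and 43.3 scaled reads. Its deletion libraries lay below its wild-type libraries, and the log2 difference was -0.23 (SE 0.17; adjusted p = 0.458, edgeR's quasi-likelihood test). Son and Srrm2, scaffold proteins of nuclear speckles, gave at most 31 and 18 reads per library.

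Cnot2 alone rose among the 4 deadenylation and decay hosts, all of which were tested. It encodes a subunit of the CCR4-NOT deadenylase, and its reads were 505, 555, 363 and 329, or 80.7, 77.6, 134 and 107 scaled reads. Both deletion libraries lay above both wild-type libraries. The log2 difference was 0.60 (SE 0.13; adjusted p = 0.000172, edgeR's quasi-likelihood test) and -0.93 on the SRPBM scale. Log2 differences were -0.37 for Cnot1, the scaffold of the complex, -0.16 for Cnot4, a ubiquitin ligase associated with it, and 0.07 for the 5′ exonuclease gene Xrn1, none of which passed.

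No host passed among the hnRNP and SAF-like genes (2 of 6 tested), the RNA editing and helicase genes (2 of 6 tested) or the Fragile X family (1 of 2 tested). Dhx9, whose protein unwinds repeat pairs, gave 107, 127, 50 and 39 reads and a log2 difference of -0.18 (SE 0.27; adjusted p = 0.751, edgeR's quasi-likelihood test). Adar gave 0, 3, 0 and 0 reads and Adarb1 gave 2, 8, 0 and 3. Ddx17, a DEAD-box helicase, gave 205, 244, 120 and 102 reads, and Fmr1, the fragile X translation repressor, gave 62, 105, 31 and 34. Sltm, a SAFB-like protein, gave 183, 201, 3 and 140 reads, with deletion P12 far below the other libraries and an SE of 2.04 on its log2 difference of -0.68.

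Single circles were compared next. Of the 82 tested, circles of Srsf1, Cnot2, Pum2 and Cpeb3 rose in the deletion and circles of Mbnl2 and Rbm33 fell, relative to the median circRNA. That is 4 higher (4.88%, background 5.03% of 8785) and 2 lower (2.44%, background 3.59%) by edgeR's quasi-likelihood test, so the shares were near the background. At an unadjusted p under 0.05 there were 14 and 6, against 977 and 834 of all 8785 circRNAs. DESeq2 called 1 and 1, those of Srsf1 and Mbnl2, against 203 and 124 over all 8785. With a library and the day term left out, the number of circles called varied, and no background share is given for those fits. Without wild type P13 the median log2 difference was 0.16 over these circles and 0.01 over all circRNAs tested. Without deletion P13 these medians were 0.04 and -0.11. With SRPBM values 1 circle was called higher, that of Srsf1, and 42 lower. The median log2 difference over all 8785 circRNAs was -1.54 on that scale.

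Nearly all Srsf1 reads came from 2 circles that start at the same position on chromosome 11 and end 1707 bases apart. The shorter one (88049977 to 88051332, exon class) gave 100, 89, 28 and 35 reads, and the longer one (88049977 to 88053039, exon class) gave 10, 17, 74 and 76. The shorter circle was the major one in wild type and the longer one in the deletion, on both days. The longer circle made up 9.09% of the reads of both (95% exact binomial interval 4.45% to 16.1%), 16.0% (9.63% to 24.4%), 72.5% (62.8% to 80.9%) and 68.5% (59.0% to 77.0%). These shares do not depend on how libraries are scaled.

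The longer Srsf1 circle was 16.4 times as abundant in deletion P12 as in wild type P12 (95% exact interval 8.41 to 35.5) and 9.96 times at P13 (5.83 to 18). Its fitted log2 difference of 3.62 had an SE of 0.31, and on the SRPBM scale the difference was 2.16 (adjusted p = 0.00442, edgeR's quasi-likelihood test). For the shorter circle the log2 difference was -0.43 (SE 0.27; adjusted p = 0.402, edgeR's quasi-likelihood test). The rise of the Srsf1 host sum thus lay in the longer circle.

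The deposited junction ratio moved likewise, but it holds the same junction reads and is no separate support. It is a fraction in which the junction reads, counted 2 times, are set against themselves plus the reads that cross the same positions without a back-splice. For the longer circle it was 0.156, 0.248, 0.718 and 0.714, and for the shorter 0.571, 0.571, 0.412 and 0.427. Linear RNA had been depleted from these libraries, so the ratio is not that of the tissue. The remaining 3 Srsf1 circles gave at most 10 reads per library.

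Other hosts also had pairs of circles sharing a start. The pairs named here were picked after their values were seen and have no test. Pum2 circles on chromosome 12 that start at 8698091 and end at 8706041 or 8713937 gave 28, 25, 38 and 32 reads and 31, 19, 2 and 3 reads. The shorter one made up 47.5%, 56.8%, 95% and 91.4% of the pair, with both deletion libraries above both wild-type ones. It rose by 1.54 on the log2 scale (SE 0.35; adjusted p = 0.00838, edgeR's quasi-likelihood test), was 0.09 on the SRPBM scale, and did not pass without wild type P13 (adjusted p = 0.0950). The Pum2 host sum did not pass.

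Celf2 circles on chromosome 2 that start at 6585974 and end at 6624719 or 6607961 gave 18, 22, 18 and 18 reads and 91, 84, 18 and 25 reads. The longer one made up 16.5%, 20.8%, 50% and 41.9% of the pair. Cnot2 circles on chromosome 10 that start at 116517317 end 70 bases apart, at 116549105 or 116549175. The first gave 67, 98, 65 and 84 reads and the second 358, 355, 260 and 190, and the share of the first was 15.8%, 21.6%, 20% and 30.7%. The genotypes overlapped in the Cnot2 share, with wild type P13 above deletion P12, and did not overlap in the Celf2 share. The first Cnot2 circle rose by 1.01 (log2; SE 0.23; adjusted p = 0.00744, edgeR's quasi-likelihood test; -0.45 on the SRPBM scale) and did not pass without wild type P12 (adjusted p = 0.196).

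**Figure D3:**
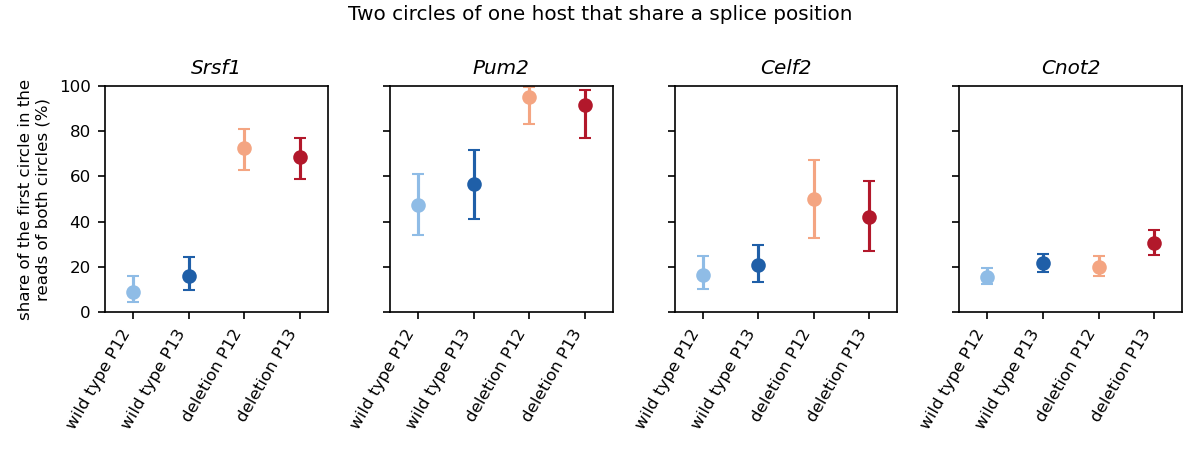
The vertical axis is the share, in percent, of 1 circle in the junction reads of a pair of circles of the same host, with 1 panel per host and 1 point per library. Bars are 95% exact binomial intervals, which cover counting error only. The circle counted is the longer one for Srsf1 and Celf2 and the shorter one for Pum2 and Cnot2, and the Srsf1 share lies at 9.09% and 16.0% in wild type and at 72.5% and 68.5% in the deletion.

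Mbnl2 had 9 circles, and 1 of them held 83.5% of its reads. This circle (chromosome 14, 120324794 to 120325412, exon class) spans 619 bases and gave 262, 263, 40 and 80 reads. It was lowest in deletion P12, where the ratio to wild type was 0.338 (95% exact interval 0.236 to 0.472), and at P13 the ratio was 0.678 (0.521 to 0.874). The fitted log2 difference was -1.02 (SE 0.23), with an adjusted p of 0.0110 by edgeR's quasi-likelihood test, and without deletion P12 the difference was -0.64 and did not pass (adjusted p = 0.0786).

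Non-junction reads at the positions of the Mbnl2 circle were 95, 103, 57 and 30, and its junction ratio was 0.847, 0.836, 0.584 and 0.842. Deletion P12 alone had a low ratio. The 2 other tested Mbnl2 circles start at 120388900. The one ending at 120396604 gave 17, 17, 10 and 5 reads (log2 difference -0.07, SE 0.64), and the one ending at 120404732 gave 20, 17, 4 and 2 (-1.48, SE 0.84; adjusted p = 0.354, edgeR's quasi-likelihood test). Neither passed.

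The most abundant Mbnl1 circle (chromosome 3, 60613263 to 60615773, exon class) gave 25, 33, 14 and 15 reads, with a log2 difference of 0.16. Another Mbnl1 circle (60595594 to 60603894) gave 30, 36, 11 and 6 reads, with a difference of -0.81 (SE 0.50; adjusted p = 0.397, edgeR's quasi-likelihood test). Its ratio at P13 was 0.371 (95% exact interval 0.128 to 0.890).

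The Rbm33 circle that fell (chromosome 5, 28394002 to 28394670, exon class) gave 45, 31, 4 and 5 reads. Both deletion libraries were below both wild-type libraries, and the log2 difference was -1.89 (SE 0.54; adjusted p = 0.0372, edgeR's quasi-likelihood test). The circle met the read filter in the wild-type libraries alone, whose values also make the fall. Its adjusted p is therefore no separate support for a fall. Without deletion P12 the adjusted p was 0.0507 by edgeR's quasi-likelihood test.

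Cpeb3 had 23 circles, built from 6 start and 8 end positions on chromosome 19, and every one shared a position with another. The gene lies on the minus strand, so the end coordinate is the 5′ side of a circle. Circles that end at 37139221 held 51.2%, 46.9%, 55.8% and 54.4% of the Cpeb3 reads. The most abundant of these (37087538 to 37139221, exon class) gave 120, 166, 112 and 106 reads, with scaled values higher in both deletion libraries. It rose by 0.77 (log2; SE 0.20; adjusted p = 0.0221, edgeR's quasi-likelihood test), and on the SRPBM scale the difference was -0.69. It did not pass without wild type P12, wild type P13 or deletion P12 (adjusted p of 0.322, 0.0609 and 0.0861, edgeR's quasi-likelihood test).

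No other of the 11 tested Cpeb3 circles passed the genotype test. The circle from 37068173 to 37139221 gave 69, 93, 46 and 54 reads and a log2 difference of 0.46 (SE 0.24). The one from 37068173 to 37088587 gave 73, 53, 43 and 44 and 0.63 (SE 0.27), and the one from 37044522 to 37088587 gave 44, 65, 20 and 24 and -0.15 (SE 0.34). These 3 circles, like most of the host, pair a small set of splice positions in different ways.

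Less abundant Cpeb3 circles followed. The circle from 37044522 to 37139221 gave 39, 39, 21 and 31 reads (0.55, SE 0.36), and the one from 37044522 to 37054374 gave 22, 23, 22 and 19 (1.01, SE 0.42). The circle from 37054260 to 37088587 gave 22, 22, 7 and 5 (-0.72, SE 0.61). Fitted log2 differences of the host's circles thus lay on both sides of 0. The circle from 37087538 to 37088587 gave 0, 10, 14 and 3 reads and that from 37044522 to 37126388 gave 12, 22, 12 and 2.

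The 2 days were compared over both genotypes. Of the 34 hosts, 0 changed by edgeR's quasi-likelihood test (0 at an unadjusted p under 0.05, and 0 by DESeq2), against a background of 0.0255% higher and 0.102% lower. Over all 3924 hosts, 90 were higher and 92 lower at an unadjusted p under 0.05. Of the 82 circles, 1 rose from P12 to P13 (1.22%, background 0.0114%) and 0 fell (background 0.0114%). The circle that rose was itself the 1 that rose among all 8785 circRNAs, so that these 2 shares count the same circle and cannot be compared. At an unadjusted p under 0.05 there were 3 and 3, against 158 and 156 of all 8785 circRNAs, and DESeq2 called 0.

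The circle that rose was from Cpeb3 (37087538 to 37126388, exon class). It had 0 reads in both P12 libraries, 55 in wild type P13 and 38 in deletion P13 (adjusted p = 0.00139, edgeR's quasi-likelihood test). Taking 3 reads for each P12 library, it was at least 16.2-fold higher at P13 in wild type and at least 11.3-fold higher in the deletion, with exact intervals that start at 12.7 and 8.72. An unlisted circle may still have had reads, if the caller dropped it, and the folds and intervals hold only where the circle was absent. The call was lost in a fit with no genotype term and on the SRPBM scale. With either P13 library left out the circle had too few reads for the filter and was not tested. The circle thus entered the test through its P13 libraries alone, whose values also make the rise. Its adjusted p is therefore no separate support for a rise.

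Of all 44073 circRNAs, this Cpeb3 circle was the 1 unlisted in both P12 libraries with at least 30 reads in both P13 libraries, and 0 had the reverse pattern. By the same measure 11 circRNAs were unlisted in both deletion libraries and 0 in both wild-type libraries. That measure uses raw reads, and the deletion libraries held fewer junction reads. Both splice positions of the Cpeb3 circle were in use at P12. Its end, 37126388, also closed a circle from 37068173, with 21, 51, 12 and 21 reads, and its start opened the circle to 37139221 described above. Non-junction reads recorded with these circles at P12 were 330 and 197 for the first and 147 and 64 for the second, wild type before deletion. Together, circles that end at 37126388 made up 8.21%, 20.8%, 7.27% and 16.4% of the Cpeb3 reads, higher at P13 in both genotypes.

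**Figure D4:**
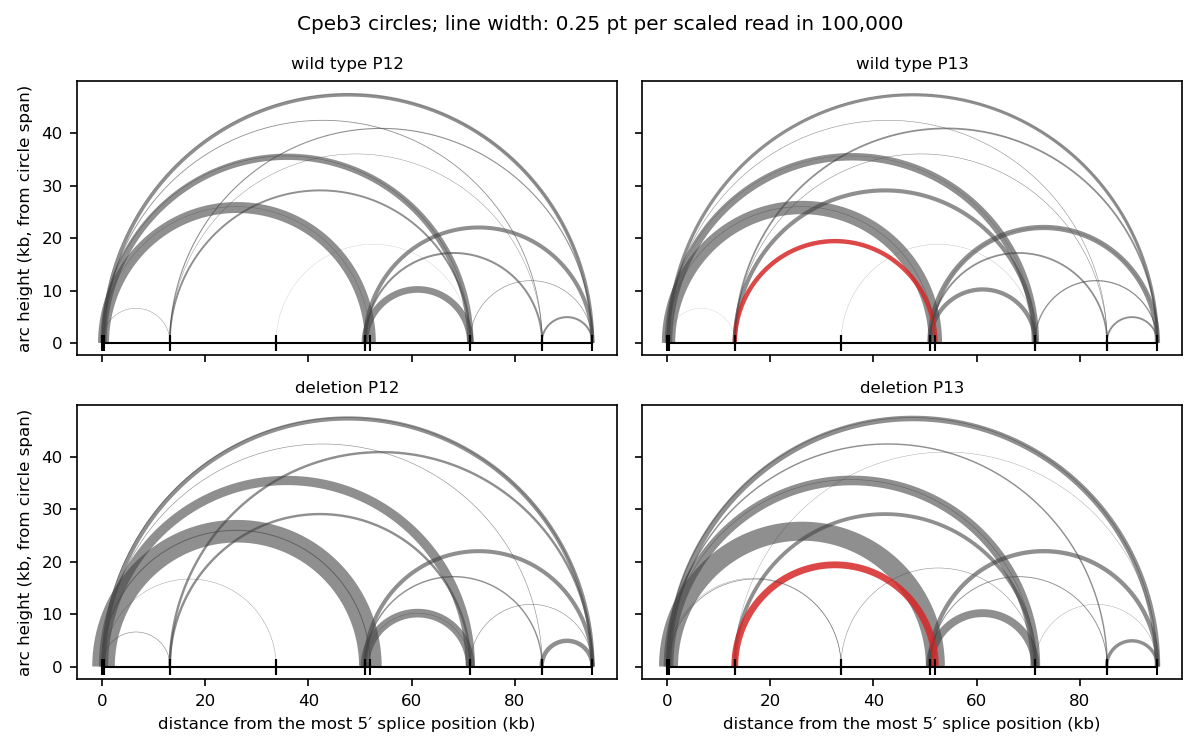
Each panel is 1 library, the horizontal axis is the distance in kb from the most 5′ splice position of the Cpeb3 circles, and each arc joins the splice positions of 1 circle. Arc height follows the span, and line width is 0.25 points per scaled read in 100000. The red arc is the circle with 0 reads in both P12 libraries and with 55 and 38 reads at P13.

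Pairs of single libraries were then compared without a test. A host or circle with at least 20 reads over both libraries was called where scaled reads differed at least 2-fold (a ratio of 2 or more, or of 0.5 or less) with 1 outside the 95% exact interval. The interval covers counting error only. At P12, 2 of 33 hosts were higher in the deletion (Msi2 and Srsf1; 6.06%, background 7.43%) and 4 lower (Mbnl2, Rbm5, Rbm25 and Sltm; 12.1%, background 10.1%). At P13, 3 of 32 were higher (Srsf1, Acin1 and Luc7l2; 9.38%, background 6.83%) and 1 lower (Celf1; 3.12%, background 8.86%). From P12 to P13 in wild type, 0 of 34 were higher (background 3.62%) and 1 lower (Acin1; background 3.76%). In the deletion, 1 of 31 was higher (Sltm; background 3.71%) and 2 lower (Rbfox2 and Celf1; background 3.58%). No host was called in opposite directions at P12 and P13.

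Among single circles at P12, 11 of 71 were higher in the deletion (15.5%, background 10.9%) and 8 lower (11.3%, background 10.6%). After Srsf1, the highest ratios were those of Msi2 (chromosome 11, 88386045 to 88480054; 4.25, interval 2.09 to 9.05), Ddx17 (chromosome 15, 79536997 to 79537545; 3.51, 2.16 to 5.79), Rbfox2 (chromosome 15, 77094451 to 77105669; 3.01, 1.29 to 7.26) and the shorter Pum2 circle (3.0, 1.79 to 5.08). The lowest were those of Sltm and a second Ddx17 circle (79536997 to 79543856), both unlisted in deletion P12, the longer Pum2 circle (0.143, 0.0165 to 0.561), the Rbm33 circle (0.197, 0.0513 to 0.539) and Rbm5 (chromosome 9, 107765495 to 107767708; 0.267, 0.103 to 0.585). Taking 3 reads for deletion P12, the second Ddx17 circle was 3.02-fold lower, with 20, 8, 0 and 9 reads. Ddx17, Pum2 and Celf2 thus had circles called in both directions at P12. In SRPBM values 1 circle was called higher and 42 lower.

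At P13, 7 of 71 circles were higher (9.86%, background 10.3%) and 4 lower (5.63%, background 9.58%). The 5 highest ratios were those of Srsf1, Celf2 (chromosome 2, 6664115 to 6721613; 5.01, interval 2.71 to 9.68), Acin1 (chromosome 14, 54662168 to 54667161; 3.71, 2.0 to 7.08), the shorter Pum2 circle (2.85, 1.64 to 5.02) and Cnot2 (chromosome 10, 116527827 to 116549105; 2.72, 1.03 to 7.44). The 4 lower ones were those of Cpeb3 (37044522 to 37126388; 0.203, 0.0231 to 0.824), Rbm33 (0.359, 0.109 to 0.932), Mbnl1 as above and Ptbp3 (chromosome 4, 59493186 to 59494610; 0.384, 0.175 to 0.758). Circles called on both days were those of Srsf1, Pum2 and Qk (chromosome 17, 10238893 to 10274063; 12, 15, 15 and 15 reads), all higher, and that of Rbm33, lower. None was called in opposite directions. SRPBM values gave 1 circle called higher and 46 lower.

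**Figure D5:**
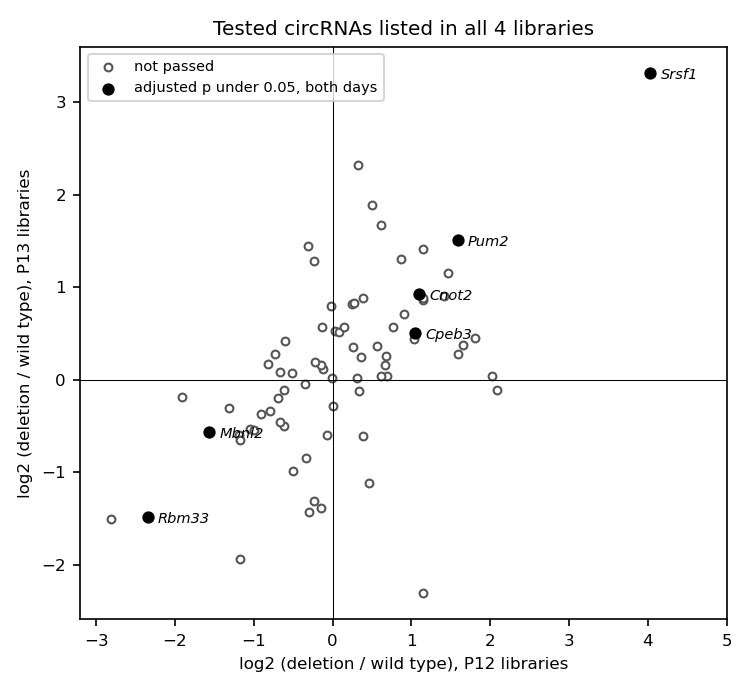
The axes are the log2 ratio of scaled junction reads, deletion over wild type, in the P12 libraries (horizontal) and the P13 libraries (vertical), for the 76 tested circles listed in every library. Filled points passed the test over both days. Of the 76, 34 lie above 0 on both axes, 23 below 0 on both and 19 on opposite sides, with Srsf1 at the upper right. The matching counts over all tested circRNAs were not taken, so that these counts show no trait of these hosts. The axes are relative to the median circRNA, and on the SRPBM scale 42 circles were called lower in the deletion and 1 higher.

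From P12 to P13 in wild type, 3 of 87 circles were higher (3.45%, background 4.48%) and 7 lower (8.05%, background 4.62%). The higher ones were both Cpeb3 circles that end at 37126388 and start at 37087538 or 37068173 (the latter 2.14, interval 1.27 to 3.75) and the Ptbp3 circle (2.33, 1.40 to 3.99). The 5 lowest were those of Rbm39 (chromosome 2, 156154239 to 156177385; 0.294, 0.0836 to 0.851), Tial1 (chromosome 7, 128443807 to 128444907; 0.307, 0.119 to 0.711), Ddx17 (79536997 to 79543856; 0.353, 0.134 to 0.836), Acin1 (0.441, 0.236 to 0.797) and Cnot2 (116504035 to 116507188; 0.441, 0.193 to 0.949). In the deletion, 3 of 55 were higher (5.45%, background 4.0%), those of Cpeb3, Sltm and Fmr1 (chromosome X, 68695489 to 68708128; 2.37, 1.06 to 5.80). There 4 were lower (7.27%, background 4.19%), those of Msi2 (0.178, 0.0532 to 0.473), Celf1 (chromosome 2, 91001006 to 91004862; 0.356, 0.113 to 0.970), Rbfox2 (0.356, 0.113 to 0.970) and Dhx9 (chromosome 1, 153482742 to 153483872; 0.415, 0.203 to 0.807). The Dhx9 circle gave 39, 21, 30 and 14 reads, and its wild-type ratio was 0.475 (0.265 to 0.828), so that its P13 library was the lower one in both genotypes.

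The junction ratio was also summed per host. Its median over hosts was 0.200 (39 hosts), 0.222 (42), 0.263 (35) and 0.249 (37). Over circles listed in every library it was 0.315, 0.324, 0.328 and 0.325 in 31 hosts. Among hosts with over 100 reads, Sltm reached 0.958 in wild type P12, but in deletion P12 it had 3 junction and 139 non-junction reads. Msi2 had 0.0556, 0.0470, 0.129 and 0.0697. Srsf1 had 0.192, 0.218, 0.412 and 0.273, with both deletion libraries above both wild-type libraries. Mbnl2 had 0.648, 0.575, 0.410 and 0.634, with deletion P12 the lowest.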

How the data were processed

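Deposited for each library were, per circRNA, raw counts of reads across the back-splice and of non-junction reads, host identifiers and a junction ratio, a fraction that recomputation matched within 0.0005. The column layout is that of CIRI, per the file headers. SRPBM values are a signal that the authors obtained by dividing junction reads by 1 constant per library, whose meaning no source used here states. Per the submitters' processing notes, BWA and DESeq2 were used, in roles not stated. The genome build is likewise not given in the sources used here; coordinates follow the deposited tables. Tables list circRNAs with at least 2 junction reads. Between 99.8% and 99.9% of host identifiers matched a RefSeq gene table (assembly GRCm38.p6), used for names. Where class, host or strand differed between tables (65 circRNAs), 1 assignment was used; no member circRNA had several hosts.

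Counts were summed per host and tested with edgeR 4.0.16 (R 4.3.3; TMM, glmQLFit robust, glmQLFTest) with genotype and day as additive terms, which leaves 1 residual degree of freedom, at an adjusted p of 0.05 over all hosts (3924) or circRNAs (8785). The SE is the log2 difference over the square root of F. TMM factors of the host sums were 1.02, 1.02, 0.982 and 0.978. DESeq2 1.42.0 was an alternative. P-values are set against the departure of 4 single libraries from additive terms, which the fit moderates over all hosts or circRNAs. They do not measure the spread between replicates or animals, since each group held 1 library. Intervals of ratios and shares are exact (Clopper-Pearson, 95%) from scipy 1.17.1 and cover counting error only, since reads carry no molecular identifiers. Against an unlisted library a floor of 3 reads per library was used. The fit was tested on simulated data. Values per library were given for Cpeb2, Cpeb3, Cpeb4, Srsf1, Mbnl1, Mbnl2, hosts that passed a test and the 5 hosts with most reads; circles named were the tested ones of Cpeb3, Srsf1 and Mbnl2, those that passed, the most abundant of each Cpeb and Mbnl host and up to 5 per direction from each pair of libraries; other hosts and the circle pairs were chosen after their values were seen. The members and gene lists were chosen with earlier results of these data known. Some single genes of the counted lists are not reported here.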

Additional observations from a re-analysis of the deposited data

Results flagged for a closer look

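The Sltm circle (chromosome 9, 70559037 to 70562861, exon class) gave 183 and 185 junction reads in the wild-type libraries (P12, then P13) and 0 and 135 in the deletion libraries. It came to attention because of non-junction reads, which the comparisons do not use. In deletion P12 another Sltm circle with the same start (70559037 to 70576840) was recorded with 139 non-junction reads and 3 junction reads, against 8 non-junction reads in wild type P13 and 29 in deletion P13. The junction ratio of the main circle was 0.958, 0.927 and 0.865 in the libraries that listed it. Taking 3 reads for deletion P12, the circle was 27.6-fold lower there than in wild type P12. That value holds only where the circle was absent and not left out by the caller. At P13 its ratio was 1.63 (95% exact interval 1.29 to 2.04). Of 44073 circRNAs, 6 were unlisted in deletion P12 alone with at least 50 reads in each other library, against 1 for wild type P12, 0 for wild type P13 and 2 for deletion P13. These counts use raw reads, and deletion P12 held the fewest junction reads. Whether the circle was absent or left out was not tested.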

How the results depend on the processing

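No paired analysis was possible because each group held 1 library and the labels give no replicate number; without the other term (no block) the genotype called 4 hosts and the day 0 circles. With DESeq2 the genotype called 4 hosts and 2 circles and the day 0 circles; DESeq2 gave no adjusted p for the hosts Acin1 and Msi2 and the Rbm33 circle. On the SRPBM scale the genotype called 26 hosts and 43 circles and the day 0 circles. With at least 20 reads in every library the day called 0 circles, since that filter removes the Cpeb3 circle, unlisted at P12. Leaving out 1 library and the other term, which leaves 1 library alone in its arm and assumes that it varies like the others, the genotype called 4 to 8 hosts and 3 to 15 circles and the day 0 to 1 hosts and 0 to 2 circles, Sltm being added without wild type P12. The SRPBM scale reversed the direction of Srsf1 (-0.38), Celf2 (-1.02), Cpeb3 (-0.96), Acin1 (-0.23), Cnot2 (-0.93) and Msi2 (-0.35) as hosts and of the Cnot2 (-0.45) and Cpeb3 (-0.69) circles. SRPBM divides by a constant per library that does not equalise the junction reads, which were fewer in the deletion libraries. For the fits with a library left out no background share is given, so that their counts are no result about the members.

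For pairs of libraries the counts called were as follows. On the SRPBM scale 43 circles and 26 hosts were called for the genotype at P12, 47 and 26 at P13, and 6 circles and 0 hosts for the day in wild type. With a ratio of 1.5, 10 hosts were called at P12, 17 circles and 7 hosts at P13, 16 circles for the day in wild type, and 12 circles and 7 hosts for the day in the deletion. With at least 50 reads, 10 circles were called at P12, 4 at P13, 5 for the day in wild type, and 1 circle and 1 host for the day in the deletion. Depth is 1 limit: 304 of the 386 circles and 11 of the 45 hosts had too few reads to test, and for single-library ratios no spread between replicates is known.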

Other observations

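A second list of 179 RNA-binding and splicing genes, chosen with earlier results of these data known, was counted beside the 48. Of these, 140 hosted a circRNA and 94 were tested. In the VLDLR deletion 7 rose relative to the median host (7.45%, background 7.47%) and 5 fell (5.32%, background 6.47%) by edgeR's quasi-likelihood test. DESeq2 called 2 and 1, against 114 and 73 of all 3924 hosts. Pan3, a subunit of a deadenylase that acts before CCR4-NOT, gave 488, 467, 469 and 402 junction reads (log2 difference 1.08, SE 0.13). Zc3h14, a poly(A)-binding zinc finger protein, gave 435, 418, 76 and 112 (-0.98, SE 0.18), and Cnot8, a catalytic subunit of CCR4-NOT, gave 71, 54, 7 and 11 (-1.57, SE 0.47). Hosts that rose also included Fubp3, Cstf3, Prpf6, Ilf2 and Elavl3, and the others that fell were Ddx42, Tnrc6c and Srpk1. For the day, 0 of the 94 changed by edgeR's quasi-likelihood test (0 higher and 2 lower at an unadjusted p under 0.05, and 0 by DESeq2).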
